A study of Homo sapiens with 10 samples.

Results

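Aminoacyl-tRNA synthetases are the enzymes that join each amino acid to its transfer RNA before protein synthesis. The 35 members described here are the listed synthetase genes, found by their Ensembl gene identifiers, out of 10631 genes with an edited position in any library. They comprise 19 genes for the cytosolic enzymes and 16 genes for mitochondrial ones. GARS1 and KARS1 were counted with the cytosolic genes, although each also supplies its enzyme to mitochondria. Of the 19 cytosolic genes, 7 encode members of the multi-synthetase complex (EPRS1, IARS1, KARS1, LARS1, MARS1, QARS1 and RARS1) and 12 encode enzymes outside it, called free here. Edited positions of the members made up 10036 of 657165 entries. No edited position of VARS2 was listed in any library, and AARS2 had 2 edited reads in 1 library.

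A synthetase recognises its own amino acid and transfer RNA, and several also correct mischarged products. The multi-synthetase complex holds enzymes for several amino acids together on the scaffold proteins AIMP1, AIMP2 and EEF1E1. Mitochondria have their own set of enzymes, nearly all encoded by separate nuclear genes whose mRNA is translated in the cytosol, and many synthetase genes are targets of ATF4, the transcription factor of the amino acid stress response.

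Ribo-STAMP joins the cytidine deaminase APOBEC1 to RPS2, a ribosomal protein, and the fusion leaves C-to-U edits on the mRNA that ribosomes contact. HEK293T, a human embryonic kidney line, expressed either APOBEC1 alone (APOBEC1-only, n = 3) or Ribo-STAMP (n = 3) from a doxycycline-inducible vector, with 1 ug/mL doxycycline for 72 h. MDA-MB-231, a line from a triple-negative breast cancer, expressed inducible Ribo-STAMP with 1 ug/mL doxycycline for 48 h and was left untreated (n = 2) or also received 100 uM CoCl2 for 48 h (n = 2), a cobalt salt used to mimic low oxygen. There was no MDA-MB-231 group with APOBEC1 alone. Whether replicates were separate cultures is not in the labels. The p-values therefore measure the spread between libraries, and that spread may be technical.

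Each APOBEC1-only library listed 2791 to 3308 edited positions, each HEK293T library with Ribo-STAMP 39385 to 49078, and each MDA-MB-231 library 116253 to 134694. Median coverage of a listed position was 45 to 53, 60 to 83 and 137 to 150 reads. All 10 MDA-MB-231 marker genes were tested in that line, which takes only enough reads. The HEK293T marker CKB and the epithelial gene EPCAM were also tested there. NEFM and NEFL, the other HEK293T markers, and the epithelial genes CDH1 and ESR1 had no edited read in MDA-MB-231. Of the 9 tested genes of the CoCl2 response list 4 rose in coverage and SLC2A1 fell. Of all 5673 genes tested for coverage 24.5% rose and 19% fell. The files hold no position common to all 6 libraries of HEK293T or all 4 of MDA-MB-231.

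The edits themselves are shown first by the 6 MDA-MB-231 positions of member genes with the most edited reads, 1 per gene, each with 15 bases of the GENCODE 29 transcript on either side. They are written 5′ to 3′ on the coding strand in DNA letters, and the capitals mark the edited C and the base before it.
HARS1: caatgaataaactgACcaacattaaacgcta
NARS1: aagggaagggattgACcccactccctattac
TARS1: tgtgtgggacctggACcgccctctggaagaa
WARS1: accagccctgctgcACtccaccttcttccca
MARS1: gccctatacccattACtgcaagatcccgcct
FARSA: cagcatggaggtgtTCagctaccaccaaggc
In 5 of these sequences the base before the edited C is A, and in FARSA it is T.

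All 6 positions lie in coding sequence on GRCh38. The HARS1 window (histidyl-tRNA synthetase) spans chr5:140679075-140679105 on the minus strand, with the edited base at 140679090 in exon 5 of 13. The NARS1 window (asparaginyl-tRNA synthetase) spans chr18:57602370-57602400 on the minus strand, in exon 13 of 14. The TARS1 window (threonyl-tRNA synthetase) spans chr5:33453334-33453364 on the plus strand, in exon 4 of 19. The WARS1 window (tryptophanyl-tRNA synthetase) spans chr14:100342488-100342518 on the minus strand, in exon 9 of 11. The MARS1 window (methionyl-tRNA synthetase) spans chr12:57489932-57489962 on the plus strand, in exon 5 of 21. The FARSA position (alpha subunit of phenylalanyl-tRNA synthetase) is base 12924462 of chromosome 19, minus strand, in exon 11 of 13, and its window crosses an exon junction.

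Each of these positions was listed in 3 of the 4 libraries, and at none of them were more than 3.00% of the covering reads edited. No MDA-MB-231 position of any gene was listed in all 4, and the sources used here do not say why. The 6 are thus the highest among the listed positions only. At the HARS1 position 5 of 520 reads (0.962%, exact 95% interval 0.313 to 2.23%) were edited in untreated replicate 2, 5 of 528 (0.947%, 0.308 to 2.20%) in CoCl2 replicate 1 and 11 of 503 (2.19%, 1.1 to 3.88%) in CoCl2 replicate 2. At the NARS1 position 13 of 433 reads (3.00%, 1.61 to 5.08%), 3 of 235 (1.28%, 0.264 to 3.69%) and 4 of 162 (2.47%, 0.677 to 6.20%) were edited in untreated replicates 1 and 2 and CoCl2 replicate 2. Among the libraries that list the position, the intervals overlap between treated and untreated at both positions. No interval was made for the library without an entry, untreated replicate 1 for HARS1 and CoCl2 replicate 1 for NARS1. The intervals given are Clopper-Pearson intervals and cover counting error only.

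Across all their edited positions in MDA-MB-231, the base before the edited C of members was A or U in 86.9% and 84.7% of positions of the untreated libraries and in 84.0% and 84.96% of the CoCl2 libraries. Over all genes the shares were 81.3%, 80.6%, 80.1% and 80.0%. The exact intervals of the members (85.3 to 88.4%, 82.8 to 86.4%, 81.8 to 86.0% and 82.8 to 86.9%) lie above the all-gene share in each library. They count positions and cover counting error only, not the spread between genes. Of the 3749 member positions 927 were listed in 2 libraries and 550 in 3, so the libraries are not independent comparisons. Complex members ran from 87.1 to 91.4%, free cytosolic members from 79.9 to 85.6% and mitochondrial members from 87.9 to 91.0%. The shares are not corrected for the base composition of the coding sequences. Edited positions were spread along the coding sequence, each of 5 equal bins of it holding 17.4 to 22.2% of the members' positions in the 4 libraries.

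In HEK293T, synthetase mRNAs carried more edits with Ribo-STAMP than with APOBEC1 alone. Edited reads on members summed to 75, 62 and 101 in the APOBEC1-only libraries and to 2241, 1610 and 2479 in the Ribo-STAMP libraries. IARS1, isoleucyl-tRNA synthetase of the complex, alone gave 1094, 621 and 1035 of the Ribo-STAMP reads, or 48.8%, 38.6% and 41.8%. Complex members gave 69.7 to 81.7% of the Ribo-STAMP edited reads and mitochondrial members 4.44 to 6.34%.

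Of the 35 members, 15 had the 10 edited reads in 3 libraries that the test of edited reads required. Of those 15, all 15 were higher with Ribo-STAMP and none lower, against 99.7% and 0.153% of the 654 genes tested. Apart from IARS1 these members met the requirement only through the Ribo-STAMP group, where they are high, so the count is a description. IARS1 had 14.0, 16.0 and 34.2 edited reads, scaled to relative depth, in APOBEC1-only and 949, 657 and 987 in Ribo-STAMP, a log2 change of 5.36 (SE 0.41, adjusted p = 9.73e-15, limma). EPRS1, the glutamyl-prolyl-tRNA synthetase, went from 5.61, 6.0 and 8.55 to 345, 277 and 306, and LARS1, the leucyl enzyme, from 0.935, 3.00 and 4.88 to 189, 131 and 125. These 3 complex members had the highest changes among the 15. No APOBEC1-only library reached a Ribo-STAMP one, but groups did not overlap for 99.7% of the 654 genes tested either. The mitochondrial members tested were LARS2, at 1.87, 2.00 and 1.22 against 72.0, 50.8 and 18.1, and TARS2, at 1.87, 2.00 and 3.66 against 17.4, 27.5 and 33.4. The median log2 change was 3.65 over members and 3.76 over all genes. With TMM scaling over all genes 4 members were higher (median 1.45), beside 305 of the 654 genes. The all-gene median was still 1.82, so this scaling removed a global difference only in part. With TMM over the tested genes only, added after the first values were seen, none was higher (median 0.21, all genes 0.75) and 7 had negative changes.

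The 20 members not tested held 16, 9 and 13 edited reads in the APOBEC1-only libraries and 75, 86 and 183 in the Ribo-STAMP libraries. They include VARS1, the valyl enzyme, with 0, 1 and 1 against 17, 5 and 12 edited reads, and HARS1, with no edited read in all 3 APOBEC1-only libraries against 3, 3 and 9.

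Editing per covering read divides the edited reads of an isoform by the reads on it, and used isoforms edited in every HEK293T library. It can pass 100 per 100 reads because a read can be edited at several positions. Of 392 genes tested 95.7% were higher in Ribo-STAMP, and all 19 members tested were higher. EPRS1 had 2.14, 2.54 and 2.24 edited reads per 100 covering reads in APOBEC1-only and 88.2, 88.8 and 84.0 in Ribo-STAMP (log2 change of the odds 5.14, SE 0.26, adjusted p = 1.51e-09, limma). IARS1 had 3.38, 3.46 and 4.14 against 114, 110 and 84.4. LARS1 had 1.03, 2.54 and 3.94 against 92.8, 82.1 and 49.6. The ratio of means was 37.7 for EPRS1, 28.2 for IARS1 and 29.9 for LARS1, and all 3 are complex members.

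Among free enzymes, GARS1 (glycyl, serving both compartments) had 1.43, 3.23 and 2.33 against 42.9, 37.5 and 27.2 per 100 reads, and YARS1 (tyrosyl) had 1.14, 0.658 and 1.67 against 23.4, 32.6 and 20.9. KARS1, the lysyl enzyme of the complex and of mitochondria, had 2.52, 3.66 and 4.29 against 53.6, 42.0 and 32.8. These Ribo-STAMP values are those of isoform KARS-201 alone, which makes the cytosolic enzyme. With the mitochondrial isoform KARS-202 included, Ribo-STAMP had 41.0, 47.1 and 30.3. AARS1, the alanyl enzyme, had 5.45, 4.60 and 3.57 in APOBEC1-only and 22.8, 22.0 and 20.3 in Ribo-STAMP, a ratio of means of 4.78. LARS2, the mitochondrial leucyl enzyme, had 3.23, 1.33 and 3.12 against 64.7, 69.1 and 50 edited reads per 100. NARS2, the mitochondrial asparaginyl enzyme, had 3.70, 3.33 and 8.33 against 6.67, 21.1 and 21.4, and it was the only tested member whose groups overlapped (groups did not overlap for 95.4% of all genes tested).

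**Figure D1:**
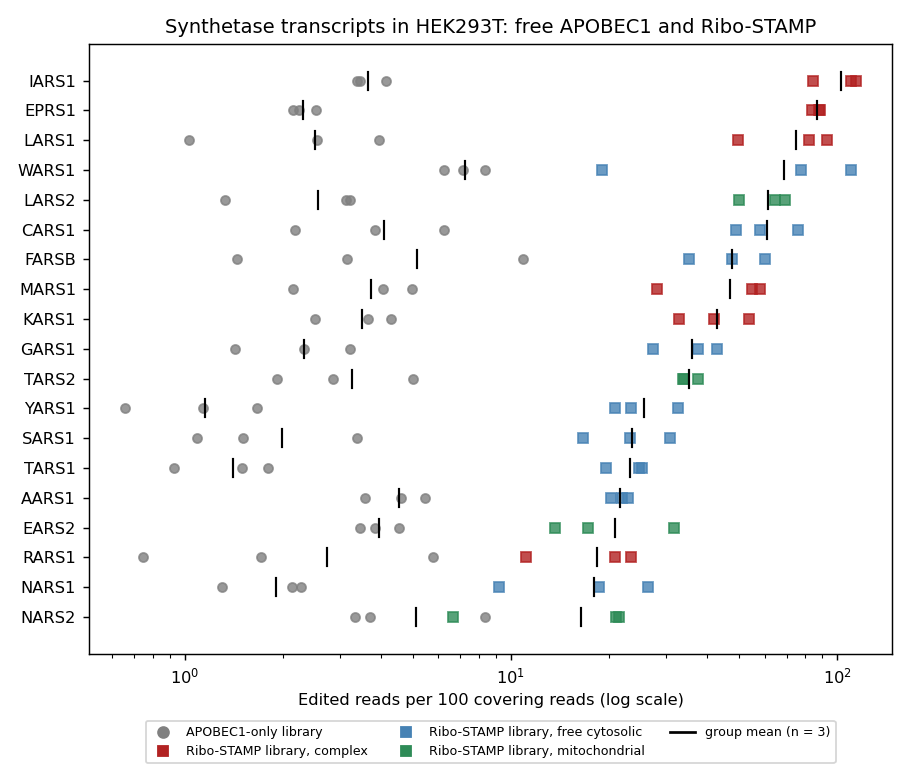
Edited reads per 100 covering reads (log axis) for the 19 synthetase genes tested in HEK293T, 1 point per library, grey circles for APOBEC1-only and coloured squares for Ribo-STAMP by class, with a black bar at each group mean (n = 3). The groups are apart for every gene except NARS2, and IARS1, EPRS1 and LARS1 lie at the top.

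The log2 change in odds had a median of 4.16 over 6 complex members, 3.41 over 9 free cytosolic members and 2.55 over 4 mitochondrial members, beside 3.47 over all genes. When each library was centred on its median gene, 3 members were higher and 3 lower, beside 73 higher and 53 lower of the 392 genes. The complex members EPRS1 (1.76), IARS1 (1.40) and LARS1 (1.36) were higher. AARS1 (-1.30), EARS2 (-1.47) and NARS2 (-2.05) were lower, the last 2 being mitochondrial. EARS2 and NARS2 had 1 edited read in each APOBEC1-only library, on 12 to 30 covering reads. That is the fewest a measured isoform can have, so their APOBEC1-only values could not be lower at that coverage. The same limit holds for their part in the mitochondrial median of 2.55. No adjusted p is given for these class medians, since the members were chosen with results known.

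Long coding sequences offer more sites, so levels were also set per kilobase of coding sequence over the isoforms that all libraries of a group list. In HEK293T Ribo-STAMP the median was 15.2 edited reads per 100 reads per kb over 2404 genes, 21.2 over the 7 complex members, 16.2 over the 12 free cytosolic members and 12.7 over 6 mitochondrial members. Of the complex members 6 lay above the all-gene median, of the free ones 8, and of the mitochondrial ones 2. The complex median was above the free median in each library, at 22.6, 23.3 and 16.7 against 17.0, 18.4 and 15.5. The cytosolic median was above the mitochondrial one in each, at 19.5, 19.95 and 16.0 against 10.3, 14.9 and 15.1. In APOBEC1-only the medians were 1.18 over 6 complex, 1.29 over 9 free and 2.01 over 4 mitochondrial members, beside 1.40 for all genes. By library the complex medians were 0.687, 0.893 and 1.11, the free ones 1.79, 0.983 and 1.05 and the mitochondrial ones 1.76, 1.61 and 2.61. Complex and free members thus had no fixed order there, and mitochondrial members were above complex ones in each library. An isoform was measured only with an edited read in every library of the group. The 4 mitochondrial members had 1 to 3 edited reads per APOBEC1-only library, so their levels are at or near the lowest measurable. Their median coverage there was 41 reads, against 162 for complex members. Median coverage was 210 reads for complex, 90 for free and 27.5 for mitochondrial members in Ribo-STAMP, and its part in these differences was not tested. Across the 25 members measured, level and coverage had a Spearman rho of 0.06, which does not compare the classes at like coverage. With all genes split into 4 groups by coverage, the highest group held 13 cytosolic members (median 16.2 per kb) and 2 mitochondrial ones (18.95). In the lowest group 2 cytosolic members had a median of 21.83 and 1 mitochondrial member was at 4.09. In the next group 2 cytosolic members had 30.04 and 3 mitochondrial ones 12.046. The cytosolic median was thus the higher one in these low groups and the lower one in the highest.

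QARS1 (glutaminyl) had the highest level per kb in HEK293T Ribo-STAMP, at 61.4, 33.2 and 53.3 (mean 49.3 ± 14.5, SD, n = 3), on only 7, 22 and 42 covering reads. WARS1 followed at 29.6 ± 8.94, IARS1 at 27.5 ± 4.35, FARSB (the beta subunit of the phenylalanyl enzyme) at 27.0 ± 7.12 and VARS1 (valyl) at 24.5 ± 2.60. These 4 do not differ beyond their spread. The lowest were RARS1 (arginyl, 9.30 ± 3.25), AARS1 (7.47 ± 0.44) and mitochondrial MARS2 (4.09 ± 1.79). RARS1 was the complex member below the all-gene median.

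In MDA-MB-231, over all 4 libraries, the median level per kb was 17.6 over 5627 genes, 19.4 over complex members, 16.6 over free members and 20.8 over 12 mitochondrial members. The complex medians were 23.7 and 22.7 in the untreated and 16.1 and 21.0 in the CoCl2 libraries, and the free medians 17.4, 15.5, 18.4 and 16.4, so complex lay below free in CoCl2 replicate 1. The mitochondrial medians were 18.1, 21.4, 18.4 and 19.995 and the cytosolic ones 19.7, 18.5, 16.9 and 16.7 in the same order, so mitochondrial members were above in 3 of 4 libraries. Over the untreated libraries alone the medians were 19.5 for 13 mitochondrial and 19.1 for 19 cytosolic members, a smaller gap. The mitochondrial genes measured differ between the lines, 6 in HEK293T and 12 in MDA-MB-231. In MDA-MB-231 levels fell with coverage over all genes (Spearman rho -0.22), the highest of 4 equal coverage groups having a median of 13.4 and the other groups 18.9 to 20.2. Of the cytosolic members 12 were in that highest group and no mitochondrial member was, and the part of coverage in the order of the classes was not tested. IARS1 was highest at 30.8, 35.4, 25.9 and 40.6 (mean 33.2 ± 6.27, SD, n = 4), followed by RARS2 (29.2 ± 7.0), QARS1 (28.5 ± 1.35), CARS2 (28.1 ± 9.95) and FARS2 (28.1 ± 4.83), which do not differ beyond their spread. SARS1 (seryl, 7.84 ± 0.62) and mitochondrial PARS2 (prolyl, 5.42 ± 2.49) were lowest. AARS1 was at 21.0 ± 3.89, above the median of all genes, whereas in HEK293T it lay below. Over the 24 members measured in both lines the levels had a Pearson r of 0.50 and a Spearman rho of 0.49, and over 1875 genes 0.18 and 0.32. Kits and induction times differed between the lines, so no test was made.

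**Figure D2:**
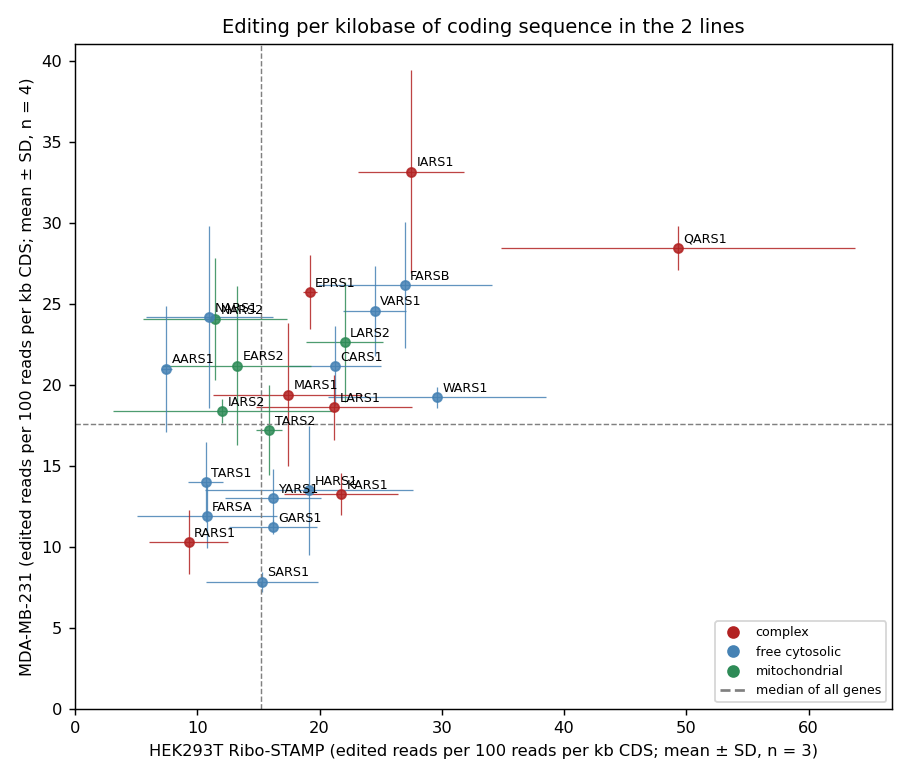
Edited reads per 100 covering reads per kb of coding sequence in HEK293T Ribo-STAMP (horizontal, mean ± SD, n = 3) and MDA-MB-231 (vertical, mean ± SD, n = 4) for the 24 members measured in both, coloured by class, with dashed lines at the medians of all genes (15.2 and 17.6). IARS1 and QARS1 are high in both lines and RARS1 is low in both.

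Recurrence of positions differed between the classes as well. Of 2247 member positions edited in HEK293T Ribo-STAMP, 35.9% (exact interval 33.9 to 37.9%) were listed in at least 2 of the 3 libraries, against 18.1% over all genes. The share was 47.3% (44.5 to 50.1%) for complex members, 24.0% (20.9 to 27.2%) for free and 13.04% (9.15 to 17.8%) for mitochondrial members. IARS1 had 298 of 469 positions (63.5%) and EPRS1 144 of 288 (50%) in at least 2 libraries, while LARS1 was at 34.3% and MARS1 at 37.1%. IARS1 and EPRS1 thus gave most of the 600 such positions of the complex members. The free member GARS1 was at 36.2% (46 of 127), within the range of LARS1 and MARS1, and other free members were not taken singly. The intervals count positions and cover counting error only, not the spread between members. These shares are not matched for coverage, which was highest for the complex members.

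CoCl2 was compared with no treatment in MDA-MB-231 first by coverage, the reads on isoforms edited in all 4 libraries, which stands in for mRNA abundance. Synthetase coverage fell more often than it rose. Of 31 members tested, 10 fell and 3 rose, while 19% of the 5673 genes tested fell and 24.5% rose. In bulk RNA, fewer cells of a type and less RNA per cell cannot be told apart. The median log2 change was -0.47 over members and -0.04 over all genes. All 7 complex members had negative changes and 4 of them fell. Of the 12 free members 5 fell and 2 rose, and of the 12 mitochondrial members 1 fell and 1 rose.

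The largest falls were in IARS1, with TMM-scaled coverage of 110 and 95.3 untreated against 39.1 and 48.0 with CoCl2 (log2 change -1.22, SE 0.27, adjusted p = 0.0029, limma), and in RARS1, with 537 and 333 against 198 and 181 (-1.15, SE 0.23, adjusted p = 0.0021). TARS1 went from 637 and 324 to 213 and 202, EPRS1 from 133 and 91.5 to 56.6 and 52.4, and AARS1 from 211 and 113 to 86.4 and 77.5. No treated library of these 5 genes reached an untreated one, which held for 26 of 31 members and for 78.1% of all genes tested. The mitochondrial isoleucyl enzyme IARS2 went from 124 and 109 to 69.9 and 59.5 (-0.84, SE 0.26, adjusted p = 0.014). NARS1, MARS1, YARS1 and GARS1 also fell, by 0.74, 0.73, 0.71 and 0.67 on the log2 scale, GARS1 from 701 and 528 to 372 and 391. KARS1 (443 and 397 against 317 and 327, adjusted p = 0.12), LARS2 (29.3 and 22.6 against 17.5 and 10.9, 0.097) and RARS2 (51.0 and 49.99 against 30.9 and 41.5, 0.20) did not pass.

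The members that rose were FARSA, from 458 and 502 to 867 and 925 (0.90, SE 0.19, adjusted p = 0.0023), mitochondrial YARS2, from 27.4 and 34.9 to 56.6 and 60.0 (0.89), and SARS1, from 561 and 684 to 901 and 943 (0.57). FARSA and FARSB encode the 2 subunits of one enzyme. FARSB had 253 and 213 untreated and 160 and 169 with CoCl2 (-0.50, adjusted p = 0.072). The ratio of FARSA to FARSB coverage was 1.81 and 2.35 untreated and 5.40 and 5.48 with CoCl2, without overlap. The exact two-sided permutation p of that ratio, which was chosen after the values were seen, is 0.333, the smallest that 2 against 2 libraries can give.

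**Figure D3:**
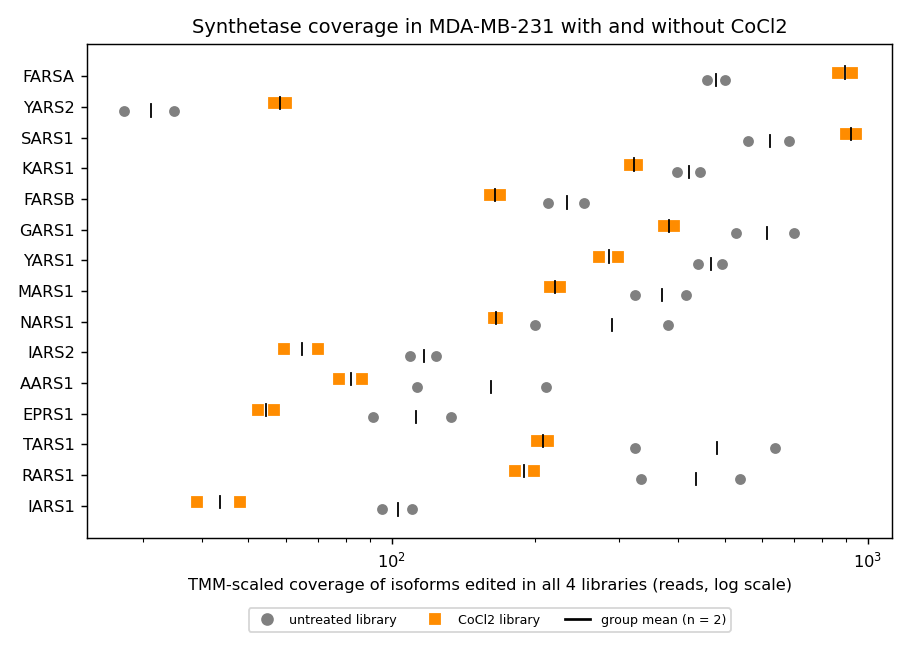
TMM-scaled coverage (reads, log axis) in the 2 untreated (grey circles) and 2 CoCl2 libraries (orange squares) of MDA-MB-231 for the 13 members that passed the threshold and for KARS1 and FARSB, which did not, with black bars at the group means (n = 2). FARSA, YARS2 and SARS1 lie to the right of untreated with CoCl2 and all others to the left.

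Coverage changes followed transcript length in these libraries, and the members that rose are the shorter ones. Over all 5673 genes each doubling of transcript length went with a log2 change of -0.53 (Spearman rho -0.64), and over the 31 members rho was -0.74. The FARSA, SARS1 and YARS2 transcripts are 1814, 1852 and 2122 bases long, and those of FARSB, IARS1 and EPRS1 are 3369, 4441 and 5014. RARS1, 2146 bases long, is the exception among the largest falls. With the length trend removed in each library, FARSA alone rose (0.65), and RARS1 (-1.28), IARS1 (-0.80), TARS1 (-0.73), GARS1 (-0.64), MARS1, YARS1 (-0.52) and KARS1 (-0.52) fell, while 686 genes of all rose and 577 fell. Without CoCl2 replicate 1 or without CoCl2 replicate 2 no member passed in coverage, and without untreated replicate 2, 4 rose and 18 fell.

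**Figure D4:**
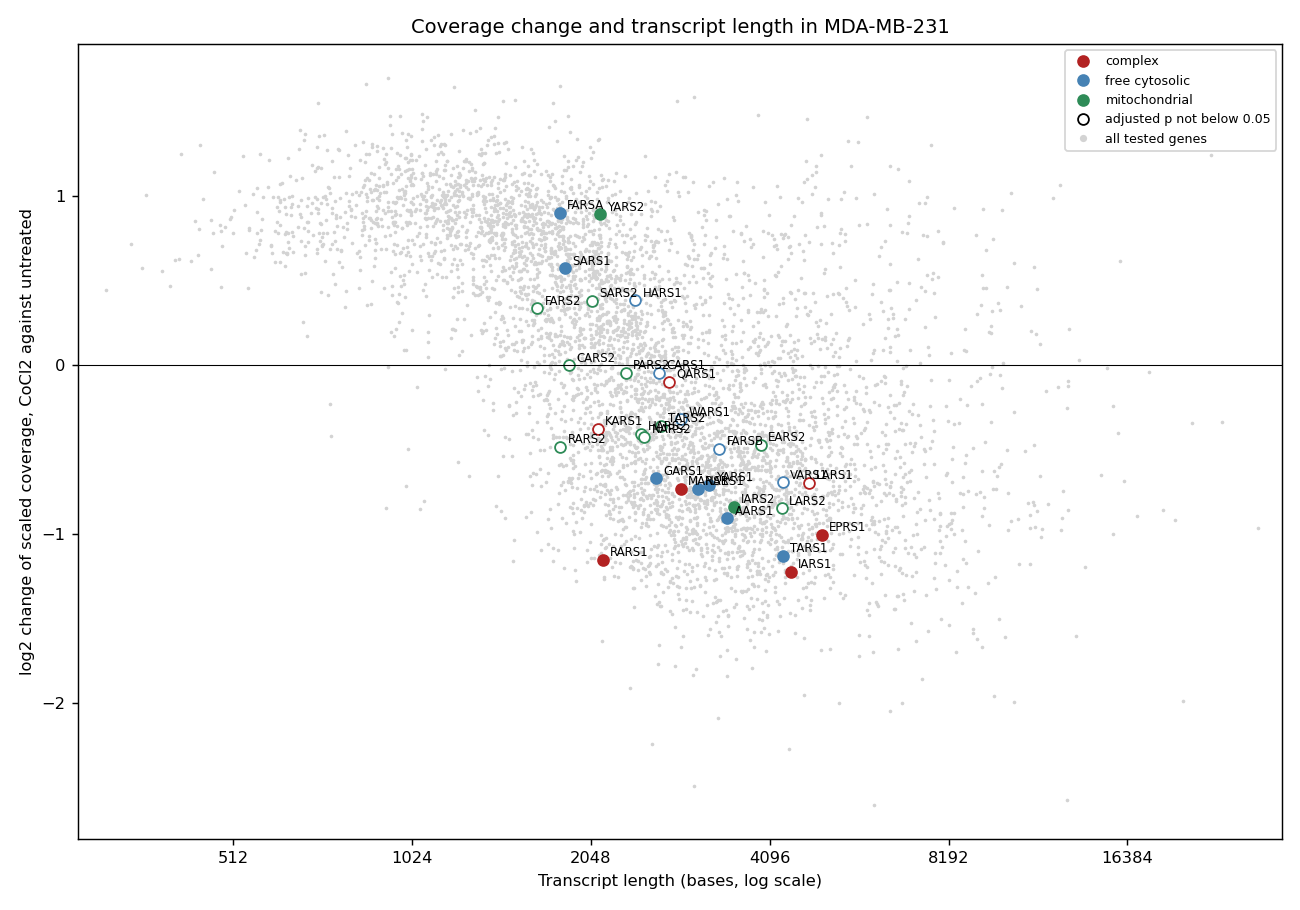
The log2 change of scaled coverage, CoCl2 against untreated, against transcript length in bases (log axis) for all 5673 genes tested (grey) and the 31 members (coloured by class, filled where the adjusted p was below 0.05). Members follow the downward course of all genes (rho -0.74 and -0.64), with RARS1 low for its length.

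Edited reads per gene showed fewer changes with CoCl2. Of 29 members tested 4 fell and 1 rose, beside 2.9% and 12.1% of the 4097 genes tested. Groups did not overlap for 23 of the 29, and for 67.8% of all genes. The 4 that fell are all complex members: RARS1 (130 and 68.6 against 43.1 and 27.1 scaled edited reads, log2 change -1.44, SE 0.39), IARS1 (142 and 137 against 39.0 and 72.6, -1.37), MARS1 (266 and 200 against 90.4 and 94.3, -1.31) and EPRS1 (146 and 122 against 64.7 and 57.4, -1.12), with adjusted p between 0.030 and 0.035 by limma. FARSA rose from 89.6 and 69.5 to 163 and 187 (1.14). The other 3 complex members, LARS1, KARS1 and QARS1, had changes of -0.72, -0.20 and -0.13 that did not pass. Of the named genes outside the complex, AARS1 (-1.04), GARS1 (-0.77), IARS2 (-0.81), LARS2 (-0.88) and RARS2 (-0.48) did not pass either. With the length trend removed RARS1 and MARS1 fell and no member rose. Without CoCl2 replicate 1, without CoCl2 replicate 2, or with no filter on edited reads, no member passed.

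For editing per covering read with CoCl2, no gene of 5673 passed by limma (0%), and 485 had an unadjusted p under 0.05. Missing the threshold does not show that the values are alike. Among the 31 members 1 did, MARS1, with 64.1 and 61.2 edited reads per 100 reads untreated and 42.1 and 42.0 with CoCl2 (-0.57, SE 0.23, adjusted p = 0.57, limma). EPRS1 stayed between 110 and 132 in all 4 libraries, and its interval for the log2 change includes 0. GARS1 had 25.6 and 25.9 against 23.8 and 24.3, KARS1 20.9 and 24.0 against 25.0 and 26.3, AARS1 70.9 and 54.2 against 69.0 and 49.3, IARS2 52.7 and 57.8 against 55.9 and 56.9. HARS1 had 11.6 and 21.9 against 24.4 and 24.5, its low value being untreated replicate 1. Groups did not overlap for 8 of the 31 members, and for 39.7% of all genes. The median log2 change was 0.05 over members and 0.20 over all genes.

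Other genes of tRNA charging were counted by list in the same coverage comparison. Among the scaffold proteins of the complex, AIMP2 (128 and 162 against 315 and 294) and EEF1E1 (96.3 and 153 against 242 and 228) rose, and AIMP1 did not pass (0.30). After removal of the length trend AIMP2 was at 0.52 and EEF1E1, which did not pass then, at 0.23, their transcripts being 1225 and 987 bases long. Of 6 genes of tRNA export and handling TRNT1, which adds the CCA end, and XPO5 fell and none rose, beside the 19% of all genes that fell. With the length trend removed TRNT1 still fell (-1.21) and XPO5 did not pass (-0.17). DTD1 and AARSD1, which remove wrongly attached amino acids, were the 2 of 4 editing genes tested, and both rose, beside 24.5% of all genes. With the length trend removed neither passed (0.36 and 0.21). Of 21 ATF4 targets 12 were tested: PYCR1 and TRIB3 rose, ALDH18A1 (245 and 141 against 74.0 and 66.6) and PSAT1 (208 and 155 against 116 and 86.8) fell and 8 did not pass. These 4 also passed with the length trend removed, as SLC7A5 then did (0.73).

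Long reads assign edits to isoforms, whose names keep older gene symbols. KARS1 makes its cytosolic enzyme from isoform KARS-201 and its mitochondrial precursor from KARS-202. KARS-201 had 53.6, 42.0 and 32.8 edited reads per 100 reads in HEK293T Ribo-STAMP, and KARS-202 had 9.09, 61.1 and 24.0 on 11, 18 and 25 covering reads, so the isoforms overlapped. In MDA-MB-231 KARS-201 had 23.0, 24.8, 25.4 and 26.7 and KARS-202 14.9, 21.9, 23.8 and 25.3, lower in each of the 4 libraries. WARS1 isoforms WARS-202 (20, 47.7 and 37.1) and WARS-203 (110, 77.3 and 19.0) overlapped in HEK293T. WARS-203 was above WARS-202 in 2 of 3 libraries, on 10, 22 and 21 covering reads, and in MDA-MB-231 they were at means of 28.2 and 25.3. For QARS1 in MDA-MB-231, QARS-201 had 65.9, 71.6, 65.5 and 67.4 and QARS-209, with a coding sequence of 1890 bases against 2325, had 9.09, 50, 50 and 36.4 on a mean of 17.5 reads, lower in each library. These isoform values are not tested.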

How the data were processed

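The authors deposited 1 headerless file per library in which a cell of another kind of unit holds a pair of numbers, read from the values as edited reads and coverage of a coding-sequence position of an isoform. A position without an edited read has no entry. The submitters' processing notes name builds hg19 and hg38. The aligner and edit caller: not given in the sources used here. Of the MDA-MB-231 entries 99.95 to 99.96% lay in the GRCh38 coding sequence of their gene (GENCODE 29), and 2.35 to 4.72% of the HEK293T entries, so coordinates and sequence are given for MDA-MB-231 alone and none was converted.

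Edited reads were summed per gene and divided by relative depth, the median coverage ratio over shared isoforms, those with an entry in each library (405 for HEK293T and 7313 for MDA-MB-231). Genes needed 10 edited reads in 3 HEK293T or 2 MDA-MB-231 libraries. Coverage is the sum of the median coverage of those isoforms, TMM-scaled (trimmed mean of M-values, with 30% and 5% trimmed), with a mean of at least 10. Editing per covering read was tested as a log2 odds with 0.5 added to edited and unedited reads. Tests used limma 3.58.1 (R 4.3.3) with a trend, two-sided, on log2(value + 1) or log2 odds, Benjamini-Hochberg over all genes, threshold 0.05. The pseudocount understates changes of low genes. Scripts were tested on simulated data.

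The members and lists were chosen with earlier results of these data known. Some genes of the lists, and 1 list, are not reported here. Values per library are given for members past the threshold, at most 6 per direction, and for EPRS1, KARS1, GARS1, AARS1, IARS2, LARS2 and RARS2 where tested. Alternatives changed scaling, pseudocount, filters, positions, length, blocking and libraries. Reads on listed isoforms numbered 81592 to 110526 in APOBEC1-only and 157544 to 203094 in HEK293T Ribo-STAMP.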

Additional observations from a re-analysis of the deposited data

How the results depend on the processing

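In HEK293T edited reads, TMM scaling left 4 members and 305 genes higher, and TMM over the tested genes, added after the data were seen, 0 and 25, with negative changes for KARS1 (-0.85), GARS1 (-0.18), RARS1 (-0.86), FARSB (-0.64), WARS1 (-0.23), TARS2 (-0.57) and MARS1 (-0.35). With no filter 2267 genes were higher. The 1 gene lower fell to 0 with limma-voom, no filter, the most edited positions left out, or positions covered by at least 20 reads. Leaving out 1 library gave 757 to 1064 genes higher and 0 to 1 lower. Per covering read in HEK293T, centring on the median gene left 3 members and 73 genes higher and 3 members and 53 genes lower, with negative changes for AARS1 (-1.30), EARS2 (-1.47), RARS1 (-0.53), NARS1 (-0.66), NARS2 (-2.05), WARS1 (-0.83) and TARS2 (-0.18), and leaving out 1 library gave 366 to 603 genes higher and 0 to 1 lower. In MDA-MB-231 edited reads, members higher and lower numbered 0 and 0 with no filter, 0 and 2 at positions covered by at least 20 reads and with the length trend removed, and 0 higher with TMM over the tested genes. All genes numbered 212 higher and 200 lower with the latter, 214 lower with TMM over all genes, 0 and 0 with no filter, 125 higher at 20 reads and 278 higher with length removed. Leaving out 1 library gave 0 to 3 members higher, 0 to 11 lower, 2 to 1068 genes higher and 3 to 580 lower. In coverage, removing length left 1 member higher and 686 genes higher with 577 lower, and leaving out 1 library gave 0 to 4 members higher, 0 to 18 lower, 0 to 2007 genes higher and 7 to 1861 lower. A fit without 1 MDA-MB-231 library assumes that the lone sample varies like the other group. Per covering read in MDA-MB-231 no member passed under any alternative run, and signs of uncalled changes turned for IARS2 (-0.15) and RARS2 (-0.18) with centring, and leaving out 1 library gave IARS2 -0.025 to 0.11, AARS1 -0.30 to 0.17, EPRS1 -0.23 to 0.041 and RARS2 -0.40 to 0.43. The cause of these shifts was not tested, apart from the changed gene sets and fewer samples. Same-numbered libraries did not all deviate together (correlations 0.09, 0.12 and 0.33 in HEK293T edited reads, 0.02 in MDA-MB-231), and not every HEK293T library correlated best with its own number, so the numbers are not taken to pair them. The replicate block gave 2 members and 783 genes higher and 6 members and 305 genes lower in MDA-MB-231 edited reads, 4 of the 6 being complex and 2 free.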
